A study of Oryza brachyantha and Oryza sativa Japonica Group and Oryza glaberrima with 38 samples.

Results

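The rice seedling list of H3K27me was compared with the 2 seedling lists of H3K9me2, which are 3 of the 21 peak lists of the series and hold 100120 of its 532158 peak lines. H3K27me had 45063 peaks, H3K9me2 replicate 1 had 28275 and replicate 2 had 26782, all on chromosomes 1 to 12 of the tigr6 assembly. The lists were picked by species, stage and antibody as the labels give them. The series profiled histone H3 marks by chromatin immunoprecipitation and sequencing (ChIP-seq) in 6 grass species, and its 38 samples include input and histone H3 controls. The groups used here were greenhouse-grown Oryza sativa of the Japonica Group, sampled as shoots 2 weeks after germination with no treatment or genotype difference between them, 4 g of tissue being used per experiment. For comparison, seedling H3K56Ac and the H3K9me2 and H3K4me3 of aerial tissue 60 days after germination, at the tillering stage, were read from 1 list each. H3K27me and H3K9me2 replicate 1 each had an input control, whereas replicate 2 had a histone H3 control, and each list had a control of its own, as the sample titles give them.

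In plants, dimethylation of lysine 9 of histone H3 marks silent heterochromatin and is linked by a feedback loop to DNA methylation outside CG sites, and most of it lies on transposable elements. Lysine 27 carries different information with its number of methyl groups. The monomethylated form lies in constitutive heterochromatin, as described in Arabidopsis, where dedicated methyltransferases place it and restrain extra DNA replication there, whereas the trimethylated form is placed by Polycomb complexes on silent genes. The label gives the antibody as H3K27me (catalogue number 07448 of Millipore) without the number of methyl groups, and the peak names begin with k271, for which the sources used here give no key. The mark is therefore named as the label names it. Shoots are a mixture of cell types, and a mark present in fewer cells cannot be told apart from a weaker mark in every cell.

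H3K27me took in most of the H3K9me2 sequence and added to it. Its peaks covered 90.8 Mb, which is 24.4% of the chromosomes, against 62.2 Mb (16.7%) for H3K9me2 replicate 1 and 69.8 Mb (18.8%) for replicate 2. H3K27me thus covered 1.37 times the mean of the H3K9me2 lists (SD 0.112 over the 2 lists, with 1.46 against replicate 1 and 1.30 against replicate 2), and it covered more than both on 12 of 12 chromosomes. Of the bp of H3K9me2 replicate 1, 82.6% lay in H3K27me peaks and 83.6% in those of replicate 2. Of the bp of replicate 2, 79.6% lay in H3K27me peaks and 74.5% in those of replicate 1. H3K27me thus held about as much of replicate 1 as the other H3K9me2 library did and more of replicate 2 than replicate 1 did, as the list with the most bp. With 1 H3K27me library there is no replicate check of the mark and no test over samples, and chromosomes, windows and peaks of 1 library are not replicates, so no p-value is given. The lists give no read depth, and its part in the difference in coverage was not tested. The difference between the H3K9me2 libraries serves as the measure of error throughout. It is not library error alone, since replicate 2 has another control and its peak names lack the word broad.

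The 3 lists together coincided over 43.9 Mb, which was 48.4% of the H3K27me bp. A further 11.6 Mb of H3K27me (12.8%) was shared with replicate 2 alone and 7.44 Mb (8.19%) with replicate 1 alone. The remaining 27.8 Mb, or 30.6%, lay outside both H3K9me2 lists. In the other direction 8.09 Mb was called in both H3K9me2 lists and not in H3K27me, which was 15.5% of the bp they share. H3K27me covered 84.5% of the bp found in both H3K9me2 lists, 72.9% of those in replicate 1 alone and 65.2% of those in replicate 2 alone. With the H3K9me2 list of 60-day tillering plants as another list, H3K27me covered 85.3% of the bp called in 3 H3K9me2 lists, 72.9% of those called in 2, 60.5% of those called in 1 and 7.59% of the bp called in none. The share under H3K27me was thus higher where more H3K9me2 lists called a base, and sequence called in a single list was still far above sequence called in none.

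Against single lists, 43.4% of the H3K27me bp lay outside replicate 1 and 38.8% outside replicate 2, where 16.4% of replicate 1 lay outside replicate 2 and 25.5% of replicate 2 outside replicate 1. A longer list must reach outside a shorter one. By size alone at least 31.4% of H3K27me had to lie outside replicate 1, 23.1% outside replicate 2 and 11.8% outside their union, and at least 10.9% of replicate 2 outside replicate 1. The share outside both lists fell to 19.7% when the 12582 widest H3K27me peaks were used, which together cover 66.0 Mb, about the mean of the H3K9me2 lists, and the share of the bp in both H3K9me2 lists without H3K27me then rose to 25.9%. Wider H3K27me peaks have a lower share outside, as given below. Keeping the widest therefore favours this fall, which does not show the effect of size alone. With H3K9me2 peaks extended by 500 bp on each side, 18.9% of the H3K27me bp lay outside both lists. With H3K27me peaks extended in the same way, the share of the bp in both H3K9me2 lists without H3K27me went from 15.5% to 4.07%.

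Peaks of H3K27me were shorter and more numerous than those of H3K9me2. The median width was 958 bp for H3K27me, 1053 bp for H3K9me2 replicate 1 and 1331 bp for replicate 2. The upper quartiles were 2354, 2575 and 3225 bp. The ratio of the H3K27me median to the mean of the H3K9me2 medians was 0.804 (SD 0.134 over the 2 lists), and H3K27me had the smallest median on 12 of 12 chromosomes, from 855 bp on chromosome 3 to 1063 bp on chromosome 4. The distance between the H3K9me2 medians was larger than that between H3K27me and replicate 1, so the difference in width was not beyond the spread between libraries. Replicate 2 also differs from the other lists in its control, and its peak names lack the word broad that theirs hold. Peaks under 500 bp made up 28.4% of the H3K27me list, 25.8% of replicate 1 and 22.2% of replicate 2. Peaks that reached 10 kb accounted for 19.1%, 24.01% and 24.7% of the covered bp in the same order. With the 50% of H3K9me2 peaks that have the highest −log10 q the ratio of medians was 0.409.

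Short H3K27me peaks lay outside H3K9me2 for most of their length. Of the H3K27me bp in peaks under 500 bp, 75.7% lay outside both H3K9me2 lists. The share was 67.8% at 500 to 1000 bp, 51.6% at 1 to 2 kb, 29.1% at 2 to 5 kb, 16.8% at 5 to 10 kb, 10.4% at 10 to 20 kb and 8.88% from 20 kb up. The share thus fell with each step in width, and the 1079 H3K27me peaks of 10 to 20 kb and the 127 longer ones each overlapped H3K9me2. Short peaks hold little sequence, so of all the H3K27me bp outside both lists 28.4% came from peaks under 1 kb, 23.3% from peaks of 1 to 2 kb and 48.3% from wider ones, and the class of 2 to 5 kb gave the most, 28.1%. The H3K9me2 libraries differed from each other in the same way. The share of replicate 2 outside replicate 1 was 63.1% in peaks under 500 bp, 28.6% at 2 to 5 kb, 17.6% at 5 to 10 kb and 11.5% at 10 to 20 kb, and that of replicate 1 outside replicate 2 went from 48.9% under 500 bp to 7.44% at 10 to 20 kb. From 2 kb up the H3K27me shares were close to or below those of replicate 2 outside replicate 1, and the fall with width was not particular to H3K27me. These levels are not like for like. H3K27me was set against both H3K9me2 lists together (80.03 Mb) and replicate 2 against replicate 1 alone (62.24 Mb). In replicate 1 the share outside H3K27me went from 32.4% in peaks under 500 bp to 10.01% in peaks from 20 kb up, and in replicate 2 from 30.7% to 15.3% at 10 to 20 kb. Above that it was 31.0% in replicate 2, whose long peaks without H3K27me are described with the named regions.

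**Figure D1:**
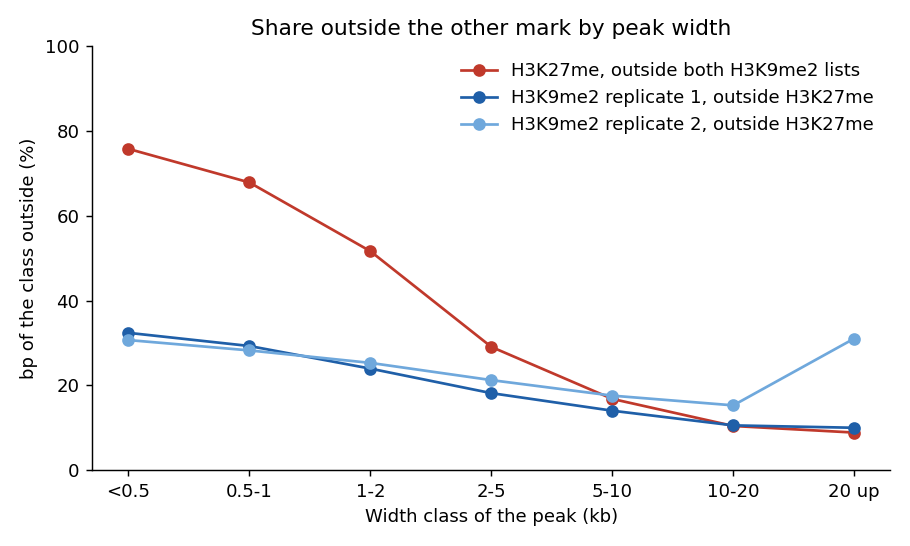
Percent of bp (vertical axis) outside the other mark for peaks grouped by width in kb (horizontal axis), in the H3K27me list against both H3K9me2 lists and in each H3K9me2 list against H3K27me. The H3K27me share falls from 75.7% in the narrowest class to 8.88% in the widest, while the widest class of H3K9me2 replicate 2 stands at 31.0%.

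In all, 18788 H3K27me peaks (41.7%) overlapped no H3K9me2 peak, with a median width of 509 bp against 1846 bp for the peaks that did. They held 44.9% of the bp outside, and the other 55.1% belonged to peaks that reach beyond an H3K9me2 peak they overlap. Of the bp outside, 51.8% lay within 1 kb of an H3K9me2 peak. The peaks without overlap were at a median distance of 5243 bp from the nearest H3K9me2 peak (quartiles 1775 and 13011 bp), and 14.5% of them were more than 20 kb away. Among the H3K9me2 libraries the peaks without a partner were fewer and nearer. There were 4616 in replicate 1 (16.3%) at a median distance of 1183 bp from replicate 2, and 5668 in replicate 2 (21.2%) at 1300 bp from replicate 1. They held 20.4% of the replicate 1 bp outside replicate 2 and 18.1% of the replicate 2 bp outside replicate 1.

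Joined across gaps of up to 1 kb, the peaks formed 30229 domains of H3K27me, 18702 of H3K9me2 replicate 1 and 16784 of replicate 2. The shortest gap between neighbouring peaks in these lists was 586, 610 and 570 bp, so the joining bridged only gaps longer than these. The median domain was 1283 bp for H3K27me, 1698 bp for replicate 1 and 2462 bp for replicate 2, and H3K27me had the shortest median on 12 of 12 chromosomes. The H3K9me2 medians lay further from each other than H3K27me from replicate 1, so this difference was not beyond the spread between libraries. That spread also holds the differences of replicate 2 in control and peak naming, whose part was not tested. Long domains, of 10 kb or more, numbered 2545, 1879 and 2249 and made up 44.6%, 46.6% and 50.3% of the joined bp. H3K27me minus the mean of the H3K9me2 lists was −3.83 points (SD 2.57 over the 2 lists), with −2.02 against replicate 1 and −5.65 against replicate 2, and H3K27me was below both on 10 of 12 chromosomes. Here too the H3K9me2 lists differed from each other by more than H3K27me from replicate 1. The order also depended on the joining, since with gaps of up to 5 kb the H3K27me share was 4.12 points above the mean of the H3K9me2 lists. The longest domain was 107434 bp in H3K27me, 210850 bp in replicate 1 and 130857 bp in replicate 2.

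**Figure D2:**
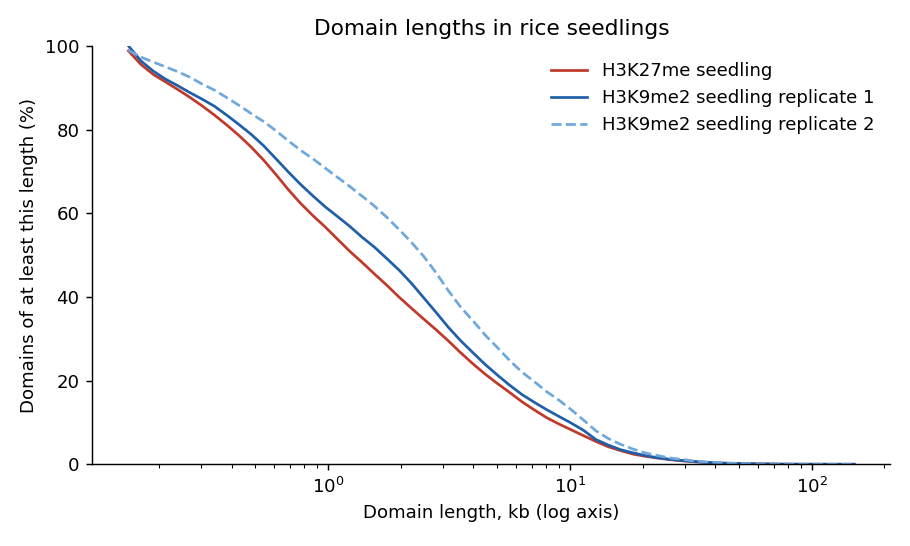
Percent of domains (vertical axis) at least as long as the length on the horizontal axis (kb, log axis) for the H3K27me list and both H3K9me2 lists, with peaks joined across gaps of up to 1 kb. The H3K27me curve lies below both H3K9me2 curves at the middle of the range, with medians of 1283, 1698 and 2462 bp. The H3K9me2 medians lie further from each other than H3K27me from replicate 1.

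Long domains of either mark held the other mark. Of the H3K9me2 domains of at least 10 kb, a median of 87.9% of the length was covered by H3K27me in replicate 1 (quartiles 79.4% and 94.3%) and 85.9% in replicate 2 (75.7% and 93.2%). Replicate 2 covered a median of 89.8% of the long domains of replicate 1, and replicate 1 covered 85.0% of those of replicate 2. The long H3K27me domains were covered to a median of 75.9% by replicate 1 and 79.3% by replicate 2. H3K27me left 2 long domains of replicate 1 and 11 of replicate 2 without any overlap, and 5 and 3 long H3K27me domains had none with replicate 1 and replicate 2. Of the long H3K9me2 domains, 61.1% in replicate 1 and 55.1% in replicate 2 were met by 1 H3K27me domain and 38.7% and 44.4% by several. Between the H3K9me2 libraries, 28.5% of the long domains of replicate 1 were met by several of replicate 2 and 45.2% of those of replicate 2 by several of replicate 1. Over domains of any length the shares met by several H3K27me domains were 8.76% and 13.2%.

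At shared domains the H3K27me edges lay further out, which a list with more bp favours. One-to-one pairs, in which a domain of each list overlaps only the other, numbered 8088 with replicate 1 and 8170 with replicate 2. They took in 26.76% and 27.03% of the H3K27me domains and 43.25% and 48.68% of the H3K9me2 domains. Pairs between the H3K9me2 libraries took in 52% of replicate 2 domains and 46.66% of replicate 1 domains. Paired H3K27me domains had median lengths of 3116 and 3327 bp, against 1283 bp over all H3K27me domains. The edge values describe the paired domains and not H3K27me domains in general. The median edge of H3K27me was 355 bp outside that of replicate 1 (quartiles −11 and 1042 bp) and 309 bp outside that of replicate 2 (−34 and 966 bp), whereas replicate 2 edges were a median of 57 bp outside those of replicate 1 (−178 and 464 bp) at 8727 pairs. H3K27me reached further out at 73.7% and 71.4% of edges and at both ends of 55.6% and 52.7% of domains. Between the H3K9me2 libraries the values were 57.6% and 33.3%. The shift was alike at both ends, with 352 bp on the left and 358 bp on the right against replicate 1. Edges of the marks coincided within 200 bp in 26.2% and 26.5% of cases and differed by more than 1 kb in 30.3% and 29.6%, against 38.1% and 14.9% between the H3K9me2 libraries.

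The outward shift was present in long domains and on each chromosome. In pairs where both domains reach 5 kb it was 336 and 366 bp, and 21 bp between the H3K9me2 libraries, so it was not a property of short domains alone. Long H3K27me domains had a median length of 1.09 times their H3K9me2 partner in both comparisons. By chromosome the median shift ran from 300 bp (chromosome 7) to 404 bp (chromosome 10) against replicate 1 and from 250 bp (chromosome 3) to 377 bp (chromosome 9) against replicate 2. It was above the shift between the H3K9me2 libraries, 32 to 93.5 bp, on 12 of 12 chromosomes. The tillering H3K9me2 list, which covers 21.04% of the chromosomes, lay a median of 143 bp outside replicate 1 and 59.5 bp outside replicate 2, less than H3K27me in both cases. H3K27me covers more bp than any of these lists, and the H3K9me2 libraries are closer to each other in size. The widest H3K27me peaks alone, which cover 66.0 Mb, gave 277 bp, but choosing wide peaks may itself favour an outward shift. The part of list size in the shift was not tested apart from this. The mean shift of 332 bp kept its sign under the alternatives tried and ranged from 144 bp with no joining of peaks to 564 bp against the 50% of H3K9me2 peaks with the highest −log10 q. Between the H3K9me2 libraries the shift without joining was 43 bp.

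**Figure D3:**
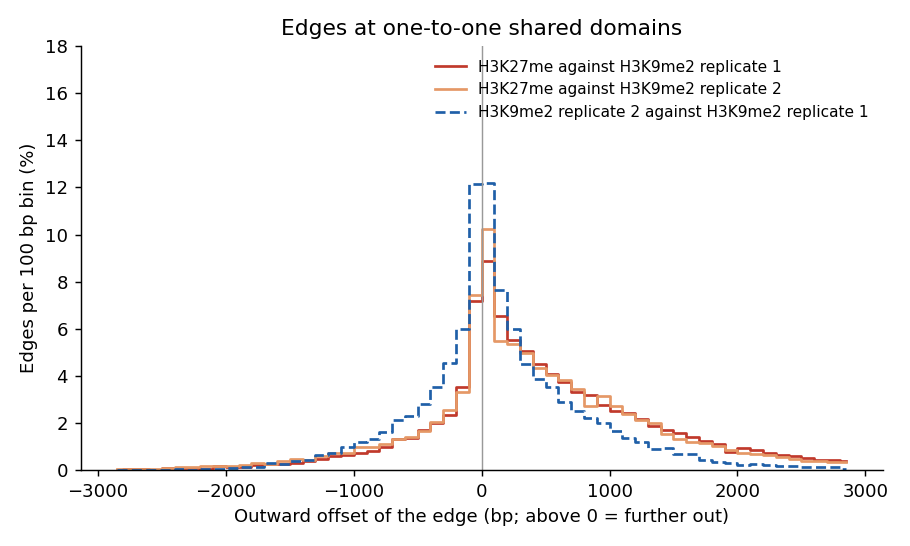
Percent of domain edges (vertical axis) in 100 bp bins of outward offset (bp, horizontal axis) at one-to-one shared domains, for H3K27me against each H3K9me2 replicate and for replicate 2 against replicate 1, with offsets past the axis ends not drawn. The H3K27me curves are shifted to the right, with medians of 355 and 309 bp, and the curve between the H3K9me2 replicates is centred near 0, with a median of 57 bp.

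The longest H3K27me domains lay on chromosomes 9 and 10, inside the H3K9me2-rich block defined below. The first, on chromosome 9 from 2802743 to 2910176 (107 kb), held 11 H3K27me peaks over 93.1% of its length, where replicate 1 had 29 peaks over 73.2% and replicate 2 had 23 peaks over 79.5%. The next, on chromosome 10 from 8626886 to 8714097 (87.2 kb), had 94.3% H3K27me, 91.4% replicate 1 and 88.8% replicate 2 coverage. The last of these, on chromosome 9 from 41275 to 126471 (85.2 kb), had 89.6%, 69.5% and 67.5%. In the chromosome 9 domains H3K27me thus formed fewer and longer peaks than either H3K9me2 list, and on chromosome 10 the 3 lists were nearly alike. These domains were picked for their H3K27me length, which favours high coverage and long peaks of that mark. Over all peaks the H3K27me median width was the smallest of the 3 lists. H3K56Ac, an acetylation of active genes, covered 0% of each domain.

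Domains of H3K27me with no H3K9me2 in either list were many and short. They numbered 14106 of 30229 (46.7%) with a median of 555 bp, held 11.5 Mb, and 52 of them reached 5 kb. The longest were 10.9 kb on chromosome 5 from 5600087 to 5610983, 10.5 kb on chromosome 4 from 14473604 to 14484104 and 9.30 kb on chromosome 12 from 5833271 to 5842573, each made of 4 peaks over 74.3% to 80.5% of the length. The tillering H3K9me2 list covered 18.4% of the one on chromosome 5 and 0% of the others. H3K9me2 domains, taken as bp in both lists, without H3K27me were fewer, 1400 of 17391 (8.05%), with a median of 371 bp. The longest were 16.8 kb on chromosome 4 from 9087497 to 9104304, 10.8 kb on chromosome 1 from 18424628 to 18435429 and 8.42 kb on chromosome 3 from 9806088 to 9814510. In the first, replicate 1 covered 73.9% in 7 peaks and replicate 2 covered 100% in 1 peak.

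Long H3K9me2 peaks with little H3K27me were found in replicate 2. Of its 102 peaks of at least 20 kb, 12 had under 10% H3K27me coverage (0.554 Mb in all) and 4 had none, while none of the 110 such peaks of replicate 1 was under 10%. The 4 peaks, chosen after their values were seen, lie on chromosome 4 from 9085231 to 9176414 (91.2 kb) and from 9177023 to 9205617 (28.6 kb) and on chromosome 12 from 20469326 to 20527569 (58.2 kb) and from 20569435 to 20613084 (43.7 kb). The first of them holds the longest H3K9me2 domain without H3K27me given above, so these are not separate examples. Replicate 1 covered 37.1%, 53.3%, 16.3% and 27.5% of the 4 peaks and the tillering list 36.3%, 32.7%, 13.5% and 14.3%. Tillering H3K4me3, a mark of active genes, covered 2.01% and 6.46% of the peaks on chromosome 4 and 22.2% and 21.7% of those on chromosome 12, where its mean over the chromosomes was 4.15%. Seedling H3K56Ac covered 0.878% of the shorter peak on chromosome 4 and 0% of the other peaks, where its mean was 5.60%. On chromosome 12 H3K4me3 was thus above its mean and H3K56Ac below. The lists differ in stage, and that of H3K56Ac has a mapping setting of its own, so these marks are not compared like for like. The histone H3 control is particular to replicate 2 among the seedling lists used here, and its part in these peaks was not tested. The sequence of these regions and how reads map to it were not examined either, which applies to the windows of deficit given below as well.

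The share of H3K27me outside both H3K9me2 lists varied little between chromosomes. It was lowest on chromosome 5 (26.2%) and chromosome 4 (29.1%), highest on chromosome 11 (35.0%) and chromosome 2 (34.4%), and had a mean of 30.7% ± 2.34 (SD over 12 chromosomes). Chromosomes 3, 6, 7, 8, 9, 10 and 12 lay between 29.7% and 31.2% and chromosome 1 at 32.1%. The share of replicate 1 outside replicate 2 ran from 14.0% to 19.0% and that of replicate 2 outside replicate 1 from 21.4% to 30.7%, and the H3K27me value was above both on 12 of 12 chromosomes. The bp in both H3K9me2 lists without H3K27me ran from 12.5% on chromosome 4 to 18.5% on chromosome 2. The ratio of H3K27me to mean H3K9me2 coverage was lowest on chromosome 5 (1.30) and highest on chromosome 11 (1.48). Chromosome 4 had the highest H3K27me coverage (29.8%, with 20.6% and 22.3% in the H3K9me2 lists) and chromosome 3 the lowest (16.5%, with 11.6% and 13.6%).

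**Figure D4:**
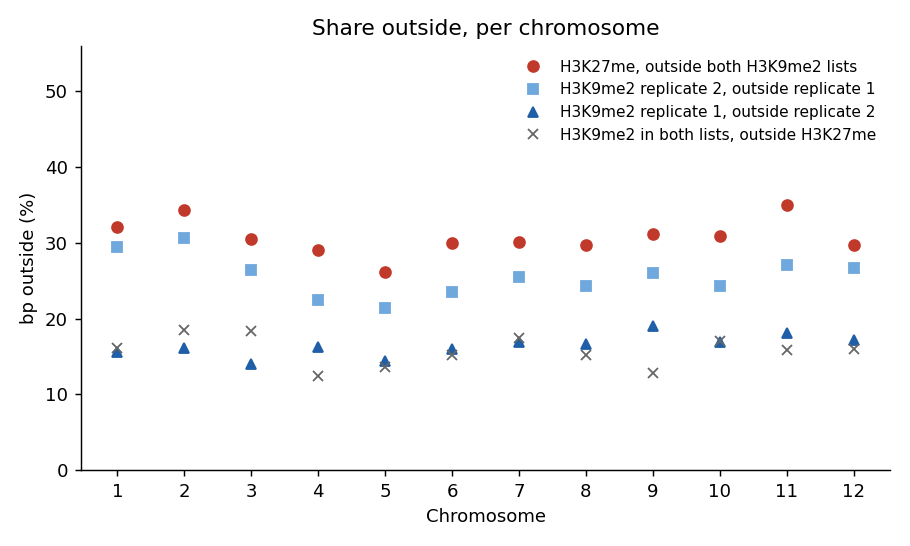
Percent of bp outside (vertical axis) on chromosomes 1 to 12 (horizontal axis) for H3K27me against both H3K9me2 lists, for each H3K9me2 replicate against the other, and for H3K9me2 in both lists against H3K27me, 1 point per chromosome. The H3K27me points lie between 26.2% and 35.0%, above both replicate values on each chromosome.

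Along the chromosomes H3K27me followed H3K9me2, and the share of it outside H3K9me2 was lowest where H3K9me2 was densest. The measure favours this order, since denser H3K9me2 leaves less sequence outside it. In 10 equal bins of each chromosome counted from the first base, H3K27me coverage was 19.9% in bin 1, 40.3% in bin 5 and 13.5% in bin 10. Replicate 1 went from 13.1% to 29.6% and 8.59%, and replicate 2 from 14.8% to 32.3% and 10.3%. H3K27me outside both lists took up 10.8% of bin 5 and 4.52% of bin 10, so more of it lay in the middle. As a share of H3K27me it was lowest in bin 4 (25.5%) and highest in bin 8 (37.3%). Replicate 2 also had its largest share outside replicate 1 in bin 8 (35.2%), and for replicate 1 outside replicate 2 the bins ranged from 13.9% to 18.1%. The first and the last Mb of the chromosomes had 30.2% and 30.02% of their H3K27me outside.

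**Figure D5:**
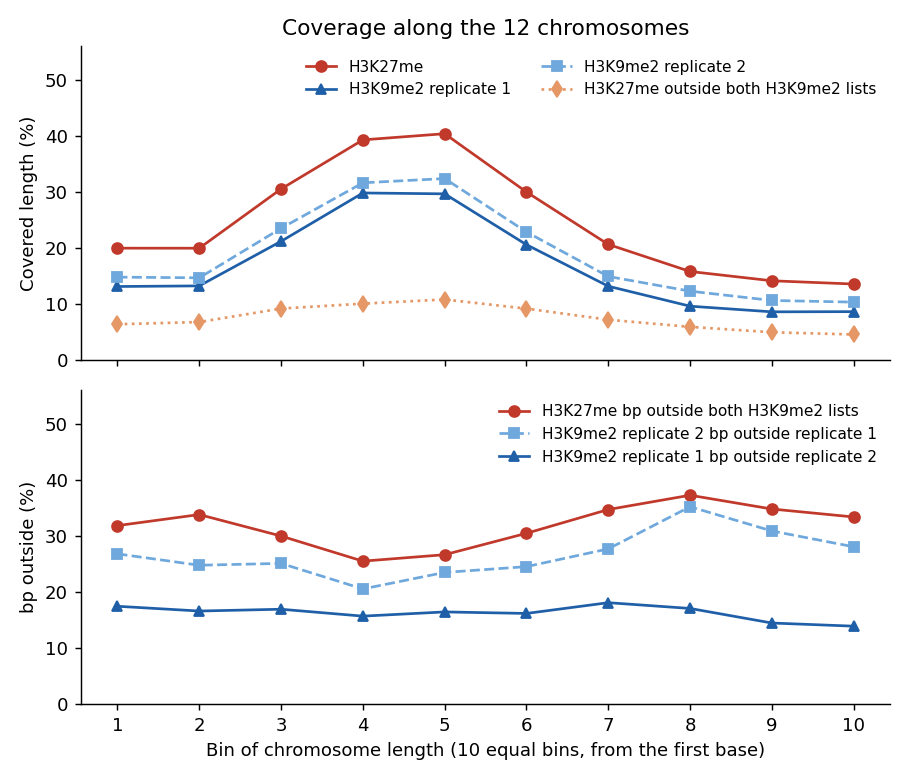
Percent of length covered (upper panel) and percent of bp outside (lower panel) in 10 equal bins of chromosome length from the first base (horizontal axis), pooled over 12 chromosomes, for H3K27me, both H3K9me2 lists and, as the dotted line of the upper panel, H3K27me outside both H3K9me2 lists. Coverage is highest in bins 4 and 5 in the 3 lists, where the H3K27me share outside both H3K9me2 lists is lowest, at 25.5% and 26.7%.

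A block rich in H3K9me2 was fitted on each chromosome from the mean of its 2 lists in 100 kb windows, as the segment that stands above the rest of the chromosome, the arms, which share 1 mean. In all 23.1% of the length fell in blocks, and the block of chromosome 9 begins at its first base, so that chromosome has an arm on 1 side only. Since the lists of H3K9me2 set the block, their own contrast is a description. H3K27me covered 45.7% of the blocks and 17.98% of the arms, replicate 1 covered 35.99% and 10.9%, and replicate 2 covered 38.2% and 12.9%. The block over arm ratio was 2.54 for H3K27me, 3.29 for replicate 1 and 2.95 for replicate 2, in an order that fitting the block to H3K9me2 favours. With the block fitted to H3K27me instead, chosen after seeing the data, the ratios were 2.72, 3.38 and 2.97. H3K27me had the lowest ratio on 12 of 12 chromosomes with either block, although with the block from H3K27me it was barely below replicate 2 on chromosome 12 (2.331 against 2.334) and chromosome 1 (2.922 for both as rounded). The share of H3K27me outside both lists was 22.9% in blocks and 36.5% in arms, a difference of 13.5 points (11.99 and 16.4 with replicate 2 or replicate 1 alone), and it was higher in the arms on 12 of 12 chromosomes, by 8.98 points on chromosome 1 to 26.0 points on chromosome 11. The H3K9me2 lists set both the block and what counts as outside, which favours a lower share in blocks. With the block fitted to H3K27me the difference was 11.4 points. Replicate 2 outside replicate 1 also rose, from 20.2% to 30.1%, and replicate 1 outside replicate 2 went from 15.4% to 17.4%. Outward from the block the share was 36.2% within 1 Mb, 37.6% at 2 to 5 Mb and 34.4% at 10 to 20 Mb. It was 28.1% in the 4.38 Mb that lie 20 to 40 Mb away, where H3K27me covered 10.6% and the H3K9me2 lists 7.33% and 8.90%, the sparsest of these distances.

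Domains were shorter in the arms in each list. H3K27me domains had a median of 2110 bp in blocks and 1081 bp in arms, those of replicate 1 had 2192 and 1450 bp, and those of replicate 2 had 3018 and 2210 bp. The outward shift of H3K27me edges was 315 bp in blocks and 373 bp in arms against replicate 1, and 320 and 305 bp against replicate 2, so the order of blocks and arms turned with the library.

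In 100 kb windows H3K27me exceeded H3K9me2 more often than it fell below. Of 3729 windows, 1606 had H3K27me coverage at least 1.5 times that of both H3K9me2 lists, which is 43.1%, and 47 (1.26%) had both H3K9me2 lists at least 1.5 times H3K27me. Replicate 2 was at least 1.5 times replicate 1 in 22.0% of windows and replicate 1 at least 1.5 times replicate 2 in 1.93%. H3K27me covers 1.37 times the mean bp of the H3K9me2 lists, which favours the excess. The H3K9me2 lists are closer to each other in size, so these shares are not like for like. Windows with the excess made up 48.3% of arm windows and 25.5% of block windows, and by chromosome 33.8% (chromosome 5) to 48.6% (chromosome 11). They had a median H3K27me coverage of 13.9%, below the median of all windows (19.6%), and 137 of them had no H3K9me2. In windows with under 5% mean H3K9me2 coverage the pooled ratio of H3K27me to H3K9me2 was 3.24 and 69.7% of H3K27me lay outside. At 20 to 30% the ratio was 1.37 with 29.4% outside, and at 50% or more it was 1.04 with 10.98% outside. Sorting by H3K9me2, the denominator of the ratio, favours this order. Sorted by tillering H3K9me2 instead, the ratio was 3.32 in windows under 5% and 1.09 in those of 50% or more. Sorted by H3K27me, which favours the opposite order, it was 1.72 and 1.18, so the order held and its size depended on the sorting. The H3K9me2 libraries showed the same order between themselves, the ratio of replicate 2 to replicate 1 being 1.56 and 1.03 when sorted by seedling H3K9me2 and 1.91 and 1.03 when sorted by H3K27me. The change of the H3K27me ratio with density was therefore larger than that between the libraries when sorted by H3K9me2 and smaller when sorted by H3K27me, and it is not shown to go beyond the difference between libraries. The share outside was 72.4% and 17.04% when sorted by H3K27me.

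Over the windows, Spearman's rho of coverage was 0.924 for H3K27me with replicate 1 and 0.912 with replicate 2, against 0.981 between the H3K9me2 libraries. Neighbouring windows are not independent and all share the assembly and its repeats, so these values describe the lists. The largest excess of H3K27me was on chromosome 10 from 4100001 to 4200000, with 74.6% H3K27me, 33.2% replicate 1 and 25.4% replicate 2. The next windows were bases 17700001 to 17800000 of chromosome 12 (49.3%, 11.6% and 11.04%) and bases 15600001 to 15700000 of chromosome 4 (67.6%, 29.5% and 29.8%). The largest deficit, on chromosome 4 at bases 9100001 to 9200000, had 0% H3K27me, 35.7% replicate 1 and 99.4% replicate 2. This window overlaps the long replicate 2 peaks of chromosome 4 given above and is the same locus. Bases 10700001 to 10800000 of chromosome 10 had 7.25%, 28.4% and 83.5%, and bases 33500001 to 33600000 of chromosome 1 had 1.88%, 19.1% and 78.3%. In the windows of deficit replicate 2 was far above replicate 1. In the windows of excess both were well below H3K27me, which the choice of windows by this difference favours.

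Other rice lists separated the H3K27me inside and outside H3K9me2. Tillering H3K9me2 peaks covered 89.0% of the H3K27me bp inside either seedling H3K9me2 list. They covered 22.8% of those outside both and 6.98% of those in H3K27me peaks with no seedling H3K9me2 overlap. Of the chromosomes they covered 21.04%, but only 12.6% of the tillering H3K9me2 bp lay outside both seedling lists. That mean is therefore too high a level to set beside the parts outside. Seedling H3K56Ac covered 0.0192% of the bp inside and 0.776% of those outside, and 1.42% of those in peaks without overlap, against 5.60% of the chromosomes. Tillering H3K4me3 covered 0.0461%, 0.465% and 0.887%, against 4.15%. Both marks of active genes were therefore less sparse on H3K27me outside H3K9me2 than inside, and below their mean over the chromosomes in each part. This was not particular to H3K27me. On H3K9me2 called in 1 list without H3K27me, H3K56Ac covered 0.422% and H3K4me3 0.932%. On H3K9me2 called in both lists without H3K27me they covered 0.0177% and 0.325%. The H3K56Ac list has a mapping setting of its own in its peak names, and the part of this in the values was not tested.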

How the data were processed

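The authors called peaks for each library with MACS2 after alignment with Bowtie, and bedtools is also named, per the submitters' processing notes. Versions and the calling threshold are not given in the sources used here. The peak names in the deposited seedling lists give the assembly as tigr6, as the name of each tillering list does, and hold the same Bowtie setting (v0 M1) in the 3 seedling lists of H3K27me and H3K9me2. The word broad stands in the names of H3K27me and H3K9me2 replicate 1. Fixation used 3% formaldehyde, sonication gave fragments of 300 to 500 bp and sequencing gave pairs of 90 bp reads, per the labels' protocols. Chromosome, start and end of each peak were used. The joined score column of the deposited H3K9me2 lists (−log10 p, fold and −log10 q, the authors' values) only ranked peaks for an alternative. The read depth per library is unknown, and the lists give no counts.

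Chromosome lengths are the last peak end over 6 O. sativa lists (372 Mb). Intervals were merged, intersected and measured in bp with Python 3.11.15 and numpy 2.4.6, using code tested on simulated intervals. Coordinates are 1-based. No gene annotation of tigr6 was used, so regions are given without genes. Named regions are the 3 longest domains of H3K27me, the 3 longest without the other mark for each mark, and the 3 windows of 100 kb with the largest excess and deficit. Nothing in the labels says whether the H3K9me2 libraries came from separate plants. The lists compared and the measures were chosen with earlier results of these data known.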

Additional observations from a re-analysis of the deposited data

How the results depend on the processing

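Of 56 alternatives over 10 results, 1 turned a direction, that of the share in long domains, though not all could do so. The shares of bp outside the other mark and the count of windows had no reference value. Their alternatives could be scored as moved but not as turned. The share of bp in domains of 10 kb or more, H3K27me minus H3K9me2, was 4.12 points with gaps of up to 5 kb joined, −0.926 points with 2 kb and −7.95 points with the 50% of H3K9me2 peaks of highest −log10 q, and −5.65 to −2.02 points with single H3K9me2 libraries. The cause was not tested. With that −log10 q filter, which leaves fewer H3K9me2 peaks, the share of H3K27me outside H3K9me2 was 43.03%, the share of H3K9me2 outside H3K27me 13.3%, the ratio of covered bp 1.81, the ratio of median widths 0.409, the outward edge shift 564 bp, the arms minus block difference 18.8 points and the count of windows with an H3K27me excess 2416. Leaving out either H3K9me2 library gave 38.8% to 43.4% of H3K27me outside, 17.4% to 20.5% of H3K9me2 outside, ratios of 1.30 to 1.46 (bp) and 0.720 to 0.910 (width), shifts of 309 to 355 bp, differences of 11.99 to 16.4 points and 1667 to 2227 windows. Extending peaks by 500 bp gave 18.9% of H3K27me and 4.07% of H3K9me2 outside, and counting bp in either H3K9me2 list gave 21.3%. The edge shift was 144 bp without joining, 522 bp with gaps of up to 2 kb and 208 bp with 50% reciprocal overlap, where the H3K9me2 libraries differed by 43, 63.5 and 32 bp. Windows of 50 kb gave 3399 (45.6% of them) and windows of 200 kb 711 (38.0%). Chosen after seeing the data, the widest H3K27me peaks up to the mean H3K9me2 bp gave 19.7% and 25.9% outside and a shift of 277 bp, and adding the tillering H3K9me2 list gave 23.6%. Also chosen then, windows sorted by H3K27me gave a ratio of 1.72 in windows under 5% (3.24 as reported, 3.003 to 3.78 with single libraries). The block over arm ratio, H3K27me minus H3K9me2, was −0.761 to −0.391 with single libraries and −0.449 with the block from H3K27me (−0.576 as reported). The other values moved by less than the SD over the H3K9me2 libraries, or, for windows, by less than 1.5 times.

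No paired analysis was possible because H3K27me has a single library, whose number comes from accession order and pairs it with neither H3K9me2 library. Read depth is unknown for each list, so a difference in depth and a difference between the marks cannot be told apart.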
